A study of Mus musculus with 21 samples.

Results

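Peritoneal B-1a cells and B-2 cells of TET2-KO mice were compared across all genes, with 4 RNA libraries of each subset. The 8 libraries were chosen from the 21 of the series by their labels, which give the TET2-KO genotype and the B-1a or B-2 subset. The series itself compared TET2-KO with WT mice, and this comparison stays within the TET2-KO genotype, so that it asks what sets the subsets apart when both lack TET2. WT libraries were not used here, and 3 B-1b libraries of TET2-KO mice served only to place the genes named below. All mice were C57BL/6 with a global knockout of Tet2, a dioxygenase that oxidizes methylated cytosines, in which the exons coding the catalytic region are deleted in every cell. The study calls its mice young, while their exact age and their sex were not given in the sources used here. B-1a cells had been sorted by surface proteins that included CD5, CD23, IgD and B220. The levels of Cd5, Fcer2a (CD23), Ighd and Ptprc (B220) are therefore partly set by the sort and serve as a check of the labels. Where lists and rankings below count these gate genes, they are not a separate result.

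B-1a cells are innate-like B cells of the body cavities that arise mainly from fetal and neonatal precursors and renew themselves in the adult. They secrete natural IgM without immunization, and a large part of them bears germline-like receptors, among them receptors for phosphatidylcholine on aged or damaged cells. B-2 cells are the conventional, largely follicular B cells that recirculate through lymphoid organs, carry IgD and CD23, and enter germinal centers. In mice, phosphatidylcholine receptors of B-1a cells classically pair the heavy chain V gene Ighv11-2 with the kappa chain V gene Igkv14-126, or Ighv12-3 with Igkv4-91.

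The sequences of these 4 V genes are shown because the immunoglobulin part of the comparison turns on them. Each is the 3′-most stretch of the V exon in GRCm39, read in the direction of the gene, and capitals mark the last in-frame cysteine codon and all that follows it, where the germline part of the third complementarity-determining region (CDR3) begins. Ighv11-2 was read from chr12:114011861-114012160 on the minus strand and Ighv12-3 from chr12:114330141-114330440 on the minus strand. Igkv14-126 was read from chr6:67873329-67873626 on the plus strand and Igkv4-91 from chr6:68745539-68745838 on the minus strand.
Ighv11-2: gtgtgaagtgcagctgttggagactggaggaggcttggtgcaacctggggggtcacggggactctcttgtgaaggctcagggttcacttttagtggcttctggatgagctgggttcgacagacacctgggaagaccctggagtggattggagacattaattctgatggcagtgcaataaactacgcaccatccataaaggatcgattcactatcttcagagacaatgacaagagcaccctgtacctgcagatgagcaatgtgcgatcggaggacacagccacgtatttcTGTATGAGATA
Ighv12-3: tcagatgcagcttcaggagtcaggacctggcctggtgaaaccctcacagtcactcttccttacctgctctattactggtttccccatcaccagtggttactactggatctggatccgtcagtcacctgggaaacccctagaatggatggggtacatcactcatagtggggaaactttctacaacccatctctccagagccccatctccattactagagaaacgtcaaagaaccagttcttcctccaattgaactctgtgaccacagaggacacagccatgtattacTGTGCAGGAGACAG
Igkv14-126: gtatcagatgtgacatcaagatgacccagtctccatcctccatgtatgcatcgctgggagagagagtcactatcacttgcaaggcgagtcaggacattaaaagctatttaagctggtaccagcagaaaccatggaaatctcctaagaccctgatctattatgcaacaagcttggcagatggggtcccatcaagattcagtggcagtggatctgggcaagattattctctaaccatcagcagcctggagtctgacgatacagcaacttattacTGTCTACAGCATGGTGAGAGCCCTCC
Igkv4-91: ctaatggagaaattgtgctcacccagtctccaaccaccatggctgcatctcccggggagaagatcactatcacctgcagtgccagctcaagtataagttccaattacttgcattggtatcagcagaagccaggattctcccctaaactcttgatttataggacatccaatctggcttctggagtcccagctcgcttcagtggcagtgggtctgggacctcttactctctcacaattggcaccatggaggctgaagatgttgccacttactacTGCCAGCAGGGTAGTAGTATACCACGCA

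Total counts ranged from 15937009 to 18426013 in the B-1a libraries and from 9667187 to 17903063 in the B-2 libraries, in 8 libraries of which no pair held identical counts. B-1a libraries had counts on 18941 to 28140 genes and B-2 libraries on 27669 to 35576 genes. Vomeronasal receptor genes, which lymphocytes are not known to use, held 45.7 to 156 CPM (read counts scaled to a common library total) in B-1a libraries and 158 to 995 CPM in B-2 libraries, with the highest values in B-2 libraries 2 and 4 (859 and 995 CPM). Per kilobase of exon, vomeronasal and olfactory receptor genes together held 0.0195 to 0.0789 CPM in B-1a and 0.0732 to 0.397 CPM in B-2 libraries. Levels of single genes are given below in CPM after TMM normalisation. Fits that take account of the receptor signal were chosen after the data were seen and are given beside only some of the results they change. Of 93 named genes followed, not all of which had passed in the main fit, 49 lost their call with the vomeronasal receptor rate as a covariate. Without B-2 libraries 2 and 4, 20 lost it. Counts with the covariate for further lists are given with the last of the gene lists.

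Markers of other peritoneal cells were present in both groups. The 14 macrophage markers summed to 5521 to 32540 CPM in B-1a and 5456 to 23820 CPM in B-2 libraries, led by Lyz2, and 0 of the 14 differed. Mast cell and granulocyte markers summed to 579 to 918 CPM and 454 to 936 CPM, led by the tryptase gene Tpsb2, and 0 of the 6 tested differed. T cell markers summed to 40.02 to 86.3 CPM in B-1a and 36.9 to 76.9 CPM in B-2 libraries. Of 10 T cell markers, Cd3g was higher in B-1a cells (24.2 ± 10.9 against 6.76 ± 2.77 CPM, SD, n = 4, log2 fold change 1.84 ± 0.38, adjusted p = 0.0147, and 0.0583 without B-2 library 1), whereas Cd3e, Cd4 and Cd8a stood below 2 CPM on average in both groups. NK cell markers summed to 4.45 to 35.8 CPM in B-1a and 10.1 to 30.8 CPM in B-2 libraries, erythroid markers to 2.67 to 32.7 and 1.03 to 35.6 CPM, and mesothelial and stromal markers to 0.0618 to 2.01 and 1.73 to 17.5 CPM. None of the 6 NK cell and 3 erythroid markers tested differed, and no mesothelial marker passed the filter. Dendritic cell markers summed to 8.96 to 22.1 CPM in B-1a and 31.0 to 66.6 CPM in B-2 libraries, and the only 1 of the 5 tested that differed was Flt3, described with the falls. When the labels' replicate number was a block, 1 macrophage marker was higher and 2 dendritic cell markers were lower. Their part in the results was not tested.

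The labels were checked against the sort gate and the subset markers. Tet2 itself was at 23.7, 22.5, 19.6 and 31.6 CPM in B-1a libraries 1 to 4 and at 16.2, 24.6, 13.5 and 36.9 CPM in B-2 libraries 1 to 4 (log2 fold change of B-1a over B-2 0.10 ± 0.30, adjusted p = 0.874). The groups overlapped, and counts per gene cover all exons, so they do not show whether the deleted ones are absent. Cd5 was at 18.9, 21.6, 17.3 and 22.9 CPM in B-1a and at 1.93, 3.48, 2.87 and 2.47 CPM in B-2 libraries. Fcer2a was at 13.8, 18.9, 9.35 and 5.004 CPM in B-1a and at 670, 806, 891 and 589 CPM in B-2 libraries. Ighd followed the same direction (461 ± 73.9 against 2872 ± 554 CPM), whereas Ptprc (566 ± 83.6 against 712 ± 67.8 CPM, adjusted p = 0.207) did not pass the test. Each of the 8 libraries thus stood on the side of its label for Cd5, Fcer2a and Ighd.

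Of 15495 genes outside the immunoglobulin loci that passed the filter on low counts, 1322 differed between B-1a and B-2 cells (8.53%) in edgeR's quasi-likelihood test at an adjusted p-value below 0.05. Of these, 736 were higher in B-1a cells (4.75%) and 586 were lower (3.78%), and the median log2 fold change over all 15495 genes was 0.012. In RNA from sorted cells in bulk, fewer cells of a type and less RNA per cell cannot be told apart. Genes that were lower in B-1a cells stood at low levels, with a median of 11.8 CPM in the group where they were higher and 176 of 586 under 5 CPM, against a median of 44.4 CPM and 20 of 736 under 5 CPM for those that were higher. A fold change above 2 was fitted for 429 of the higher genes and for 472 of the lower ones. The plot of fold change by level shows the fall of many low genes beside a smaller number of large changes among abundant ones.

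The count depended on single libraries. It was 671 without B-1a library 2, 824 without B-1a library 3, 686, 556 and 854 without B-2 libraries 1, 2 and 4, and 2232 without B-2 library 3, of which 1194 were among the 1322. When the replicate number was a block it was 1780, of which 1147 were higher. Without B-2 libraries 2 and 4 it was 361, and with the vomeronasal receptor rate as a covariate, which itself differs between the groups, it was 102. Over all 15723 genes tested, immunoglobulin genes included, 8.99% differed (4.74% higher and 4.25% lower), and the libraries of the groups did not overlap for 19%.

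**Figure D1:**
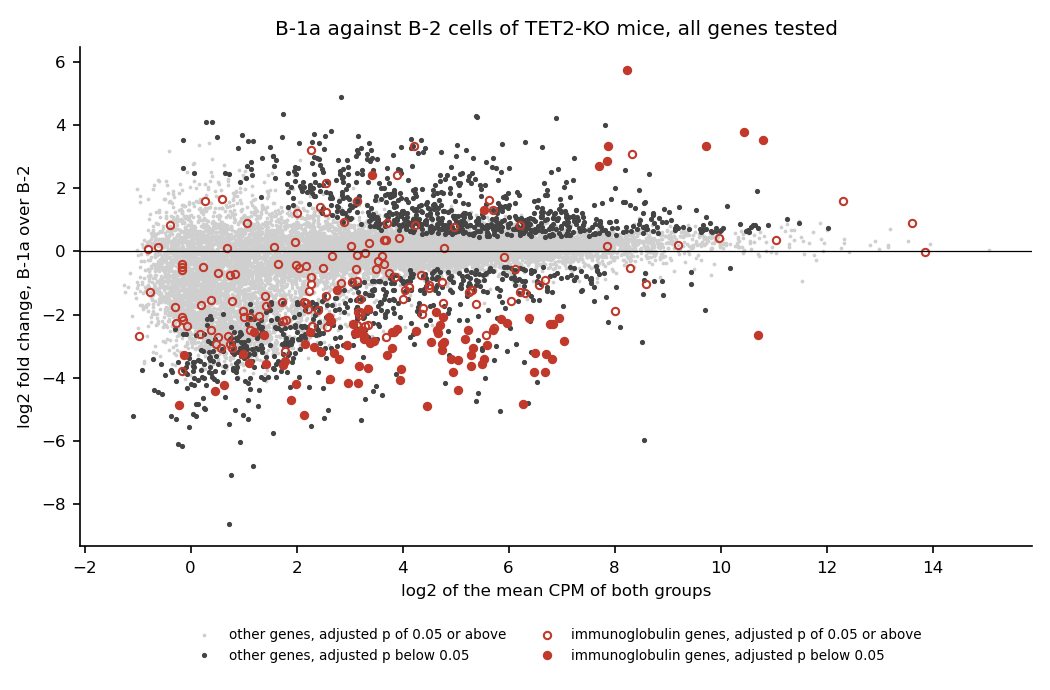
Each point is a gene that passed the filter on low counts, with the log2 of its mean CPM over both groups on the horizontal axis and the fitted log2 fold change of B-1a over B-2 cells on the vertical axis. Red circles are the 228 immunoglobulin genes, of which 92 passed the test (83 lower, 9 higher), and dark points are the 1322 other genes that passed.

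The subset markers of the study set the groups apart. Zbtb32 (chr7:30289106-30298334, minus strand, GRCm39), a repressor that limits B cell responses, was at 488, 385, 538 and 592 CPM in B-1a libraries and at 86.7, 61.2, 106 and 81.8 CPM in B-2 libraries (log2 fold change 2.58 ± 0.21, adjusted p = 6.58e-05). Bhlhe41 (chr6:145803969-145811284, minus strand), a basic helix-loop-helix repressor required for B-1a cell development and self-renewal, was at 22.1, 44.6, 39.4 and 79.2 CPM against 6.19, 9.13, 7.87 and 14.8 CPM (2.29 ± 0.39, adjusted p = 0.00553). Cr2 (chr1:194819119-194859024, minus strand), the complement receptor CD21, was at 9.37, 4.93, 10.8 and 14.3 CPM against 156, 167, 191 and 187 CPM (-4.15 ± 0.29, adjusted p = 3.77e-05). No B-1a library overlapped a B-2 library for any of the 3 genes, and each call held when any library was left out. With the receptor covariate the call of Bhlhe41 was lost (adjusted p = 0.477), while those of Zbtb32 (0.0136) and Cr2 (0.00338) held.

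**Figure D2:**
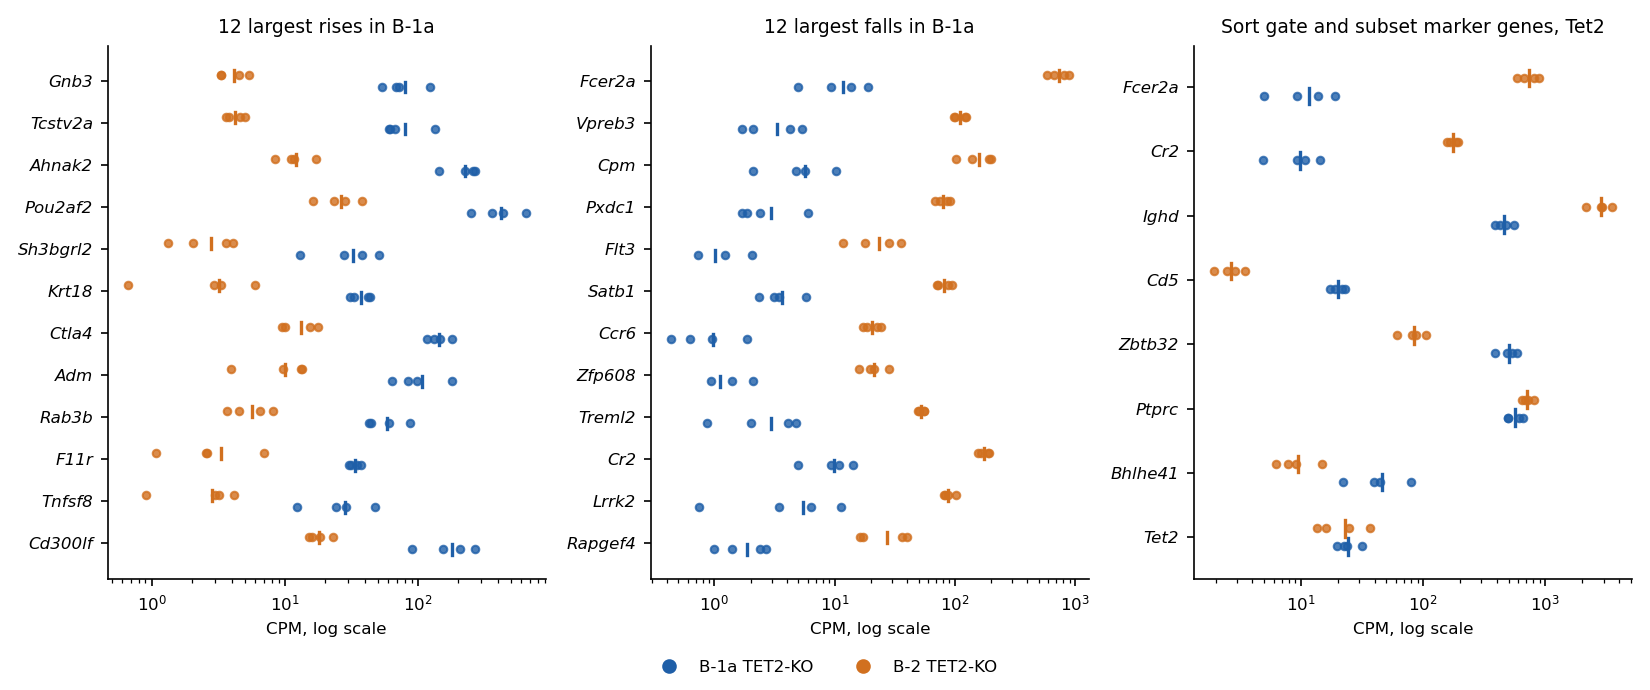
CPM on a log scale for the 12 largest rises, the 12 largest falls, and sort gate and marker genes with Tet2, with 1 point per library and a bar at the group mean. Blue B-1a libraries and orange B-2 libraries do not overlap for the 24 largest changes, which were chosen on that condition, and they overlap for Ptprc and Tet2. B-1a library 4 held no count of Flt3 and Zfp608, which a log axis cannot show.

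Of 20 markers and regulators of B-1 cells, 12 were higher in B-1a than in B-2 cells, the gate gene Cd5 among them, and 0 were lower. The median log2 fold change of the list was 1.37, against 0.012 over all genes. Beside the markers above, the list held Plscr1, a phospholipid scramblase (209 against 34.6 CPM, log2 fold change 2.60), and Fcrl5, an Fc receptor-like protein of innate-like B cells (188 against 33.3 CPM, 2.49). Spn, the sialoprotein CD43 (37.7 against 9.86 CPM, 1.94), Il5ra, the interleukin-5 receptor through which B-1 cells are sustained (150 against 64.4 CPM, 1.22), and Arid3a, a regulator of fetal-type lymphopoiesis (36.7 against 14.3 CPM, 1.36), were also higher. Prdm1, Anxa2 and Nt5e complete the 12. Genes of the list that did not pass included Cd9 (475 against 231 CPM, adjusted p = 0.121), Itgam, the CD11b chain (99.5 against 61.6 CPM, 0.256), and Bhlhe40, the paralog of Bhlhe41 (26.8 against 28.1 CPM, 0.932). The count was 10 to 13 when 1 library was left out, 6 without B-2 libraries 2 and 4, and 4 with the receptor covariate.

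Of 16 genes of follicular and marginal zone B-2 cells, 8 were lower in B-1a cells and 2 were higher, with a median of -0.65. Beside the gate genes Fcer2a and Ighd, the falls included Cr2, Ccr7, Bach2, Cd55 (267 against 694 CPM, -1.38) and Cd1d1. The higher ones were S1pr3, a sphingosine 1-phosphate receptor of marginal zone B cells (5.25 ± 1.21 against 0.648 ± 0.25 CPM, 3.00 ± 0.48, adjusted p = 0.00379), and Dtx1, a target and modifier of Notch signaling (65.4 ± 11.5 against 35.7 ± 2.91 CPM, 0.87 ± 0.16, adjusted p = 0.00813). Cxcr5, the receptor that leads B cells to follicles, was at 480 and 447 CPM (adjusted p = 0.887).

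The 12 largest rises outside the immunoglobulin loci ran from 9.88-fold to 19.3-fold. Gnb3 (chr6:124811203-124817238, minus strand), a beta subunit of heterotrimeric G proteins, was at 72.9, 68.9, 54.1 and 123 CPM in B-1a libraries and at 3.33, 4.53, 3.33 and 5.44 CPM in B-2 libraries (log2 fold change 4.27 ± 0.30, adjusted p = 3.77e-05). Ahnak2 (chr12:112738628-112766277, minus strand), a giant scaffold protein, was at 145, 261, 226 and 271 CPM against 11.7, 11.2, 17.1 and 8.41 CPM (4.21 ± 0.28, adjusted p = 3.77e-05). Pou2af2, a coactivator of POU family transcription factors, was at 435, 651, 361 and 251 CPM against 28.4, 23.6, 37.9 and 16.4 CPM (3.99 ± 0.35, adjusted p = 0.000104). Every B-1a library exceeded every B-2 library by several-fold for these 3 genes. Ctla4 (chr1:60926159-60954991, plus strand), the inhibitory receptor known from T cells, was at 182, 133, 147 and 118 CPM against 15.4, 10.02, 17.8 and 9.56 CPM (3.45 ± 0.25, adjusted p = 3.96e-05). Cd300lf, an inhibitory receptor that binds phospholipids, was at 155, 208, 90.0 and 269 CPM against 23.0, 18.4, 16.1 and 15.3 CPM (3.31 ± 0.32, adjusted p = 0.000203). Both are surface receptors, as are the junctional adhesion molecule F11r (33.5 ± 3.09 against 3.30 ± 2.54 CPM) and the CD30 ligand Tnfsf8 (28.4 ± 14.8 against 2.83 ± 1.38 CPM).

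The remaining rises were of other kinds. Adm, the vasoactive peptide adrenomedullin, was at 107 ± 52.2 against 10.1 ± 4.46 CPM, and Krt18, a keratin of simple epithelia, at 37.5 ± 6.41 against 3.22 ± 2.18 CPM. Rab3b, a GTPase of vesicle exocytosis, was at 59.2 ± 20.9 against 5.73 ± 2.01 CPM, and Sh3bgrl2 at 32.7 ± 16.3 against 2.77 ± 1.30 CPM. Tcstv2a was at 80.9 ± 35.5 against 4.27 ± 0.67 CPM, and it belongs to a family of similar copies between which reads could be split. All 12 calls held when any library was left out. With the receptor covariate, 6 of the 12 did not pass (Sh3bgrl2, Krt18, Adm, F11r, Tnfsf8 and Cd300lf, adjusted p from 0.0702 to 0.188).

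The 12 largest falls ran from 14.6-fold to 62.9-fold and began with the gate gene Fcer2a. Vpreb3 (chr10:75778891-75785491, plus strand), a chaperone-like partner of immunoglobulin chains known from early B cells, was at 4.28, 5.33, 1.69 and 2.10 CPM in B-1a and at 99.9, 125, 99.2 and 121 CPM in B-2 libraries (log2 fold change -5.06 ± 0.35, adjusted p = 3.77e-05). Satb1 (chr17:52043215-52140318, minus strand), a chromatin organizer of lymphocytes, was at 3.12, 5.73, 3.45 and 2.35 CPM against 71.5, 87.7, 72.7 and 94.6 CPM (-4.48 ± 0.27, adjusted p = 2.87e-05). Ccr6 (chr17:8454875-8475973, plus strand), the receptor of the chemokine CCL20, was at 0.95, 1.87, 0.627 and 0.432 CPM against 17.4, 24.2, 22.5 and 18.5 CPM (-4.41 ± 0.41, adjusted p = 0.000173). In these 3 genes the B-1a libraries stood at low levels, near the lower end of detection only for Ccr6, while the B-2 libraries varied little. Flt3, the receptor of a growth factor of lymphoid precursors and dendritic cells, was at 1.22, 0.733, 2.07 and 0 CPM against 11.8, 17.8, 35.8 and 28.5 CPM (-4.54 ± 0.73, adjusted p = 0.00414). Its fold rests on few counts in B-1a cells.

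Enzymes and signaling proteins made up much of the rest. The gene Cpm, which codes carboxypeptidase M, was at 5.70 ± 3.36 against 159 ± 46.7 in CPM units. Lrrk2, a large kinase with a GTPase domain, was at 5.50 ± 4.56 against 88.5 ± 9.25 CPM, Rapgef4, an exchange factor activated by cyclic AMP, at 1.87 ± 0.80 against 27.4 ± 12.5 CPM, and Pxdc1 at 2.98 ± 2.03 against 80.4 ± 10.5 CPM. Treml2, a receptor of the TREM family, was at 2.94 ± 1.82 against 52.5 ± 3.52 CPM and Zfp608, a zinc finger protein, at 1.11 ± 0.88 against 21.4 ± 5.29 CPM. All 12 calls held when any library was left out. Without B-2 libraries 2 and 4 the call of Zfp608 was lost (adjusted p = 0.0653), and with the receptor covariate those of Flt3, Zfp608 and Lrrk2 were lost (0.0890, 0.182 and 0.104).

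Most of these 24 genes did not pass the test between B-1a and B-1b cells of the same genotype, a comparison that shares the B-1a libraries. In a fit of all 11 TET2-KO libraries, 38 of 18555 genes differed between B-1a and B-1b cells (0.205%), 2 of them higher in B-1a (0.0108%) and 36 lower (0.194%). In that edgeR fit 18 of the 24 had an unadjusted p below 0.05, as did 1072 of the 18555 genes. A gene that did not pass is thus not shown to be equal in the B-1 subsets. Of the 24 genes, 1 rise (Tcstv2a, 81.0 CPM in B-1a and 27.8 CPM in 3 B-1b libraries) and 5 falls (Fcer2a, Vpreb3, Cpm, Pxdc1 and Rapgef4) also differed from B-1b cells, each by less than from B-2 cells. Vpreb3, for example, was at 15.6 CPM in B-1b cells (log2 fold change of B-1a over B-1b -2.22, adjusted p = 0.0317), and Fcer2a was at 41.8 CPM (-1.83, adjusted p = 0.0375). Satb1 (5.12 CPM), Flt3 (1.79 CPM) and Zfp608 (1.67 CPM) were low in B-1b cells too. Zbtb32 was at 488 CPM in B-1b cells, and its B-1a to B-1b difference was 0.03 ± 0.23 on the log2 scale. These B-1a to B-1b calls rest on the spread of all 3 subsets. With the 7 B-1 libraries alone, edgeR called 0 of 14634 genes, and the smallest adjusted p was 0.0649. In that fit 538 genes had an unadjusted p below 0.05, 19 of the 24 among them. With the replicate number as a block 103 genes passed, 10 of the 24 among them.

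Promoters of 3 of the genes whose groups separate are shown because they hold a short motif of a B cell regulator. A pair of short strings was searched on both strands in the 250 bases before each RefSeq start site: CACGTG, the E-box bound by basic helix-loop-helix repressors such as Bhlhe41 itself, and ATTTGCAT, the octamer bound by POU factors of B cells. Of the 27 named genes looked up, 22 had a promoter in the RefSeq table (GRCm38.p6, a build older than that of the counts). Bhlhe41 (chr6:145865421-145865670, minus strand) holds an E-box, and the windows of Vpreb3 (chr10:75948050-75948299, plus strand) and of Ccr6 (chr17:8235793-8236042, plus strand, 1 of its 2 windows) hold an octamer. No other window of the 22 genes held either string. Capitals mark the motif.
Bhlhe41: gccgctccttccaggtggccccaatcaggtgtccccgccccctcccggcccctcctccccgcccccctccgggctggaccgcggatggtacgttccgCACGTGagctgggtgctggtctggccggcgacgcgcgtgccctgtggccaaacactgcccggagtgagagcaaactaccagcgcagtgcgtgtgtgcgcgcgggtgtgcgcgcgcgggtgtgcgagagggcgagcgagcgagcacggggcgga
Vpreb3: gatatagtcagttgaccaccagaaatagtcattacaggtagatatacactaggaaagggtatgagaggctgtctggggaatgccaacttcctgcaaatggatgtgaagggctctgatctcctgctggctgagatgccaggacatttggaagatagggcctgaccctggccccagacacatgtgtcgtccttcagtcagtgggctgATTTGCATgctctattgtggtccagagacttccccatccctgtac
Ccr6: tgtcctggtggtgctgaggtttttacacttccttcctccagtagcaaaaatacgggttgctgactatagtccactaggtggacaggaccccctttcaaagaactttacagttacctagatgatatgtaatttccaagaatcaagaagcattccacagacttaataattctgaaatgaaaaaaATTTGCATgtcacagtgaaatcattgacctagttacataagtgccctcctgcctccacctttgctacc

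The E-box was found in 6.02% of all 32851 RefSeq promoter windows and the octamer in 1.6%. By gene, the E-box was found for 10.3% of 542 genes higher in B-1a cells that had a promoter, for 7.90% of 367 genes that were lower and for 9.49% of all 10470 tested genes with one. The octamer was found for 1.85%, 2.45% and 1.58%. These shares were close to one another and were not tested, and a match describes letters in a window and not a bound site.

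Transcription factors of B cells moved in both directions. Of 42 tested, 8 were higher in B-1a cells and 7 were lower, with a median of -0.05. Bach2, a repressor that holds B cells back from plasma cell differentiation, was at 25.8, 32.6, 25.7 and 24.7 CPM in B-1a and at 84.6, 93.3, 78.8 and 120 CPM in B-2 libraries (log2 fold change -1.79 ± 0.17, adjusted p = 0.000214). Bcl6, the master repressor of germinal center B cells, was at 4.96, 7.80, 4.39 and 6.12 CPM against 24.6, 26.0, 22.5 and 18.0 CPM (-1.97 ± 0.23, adjusted p = 0.000718). Both groups were compact for these genes and did not overlap. Irf8 (122 against 336 CPM, -1.46), Id3 (66.4 against 144 CPM, -1.12), Mef2c, Hhex and Runx3 were the other falls. Zeb2 was at 85.1, 105, 59.3 and 108 CPM against 36.8, 36.7, 23.2 and 36.4 CPM (1.43 ± 0.23, adjusted p = 0.00361), and beside Zbtb32 and Bhlhe41 the other rises were Ikzf3, Arid3a, Prdm1, Myc (287 against 104 CPM, 1.47) and Zbtb20. The lineage factors Pax5 (80.2 against 105 CPM, adjusted p = 0.264), Ebf1 (153 against 222 CPM, 0.0614) and Tcf3 (152 CPM in both, 0.998) did not pass. With the replicate number as a block, 13 were higher and 12 lower, and 12 were lower with at least 10 counts in every library. The rises numbered 5 without B-1a library 2 or without B-2 library 1, and 3 without B-2 libraries 2 and 4.

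Of 32 genes of B cell receptor signaling, 5 were higher and 3 lower in B-1a cells. The rises were small: Syk, the kinase that starts the signal, was at 718, 663, 744 and 801 CPM against 415, 459, 526 and 374 CPM (log2 fold change 0.72 ± 0.15, adjusted p = 0.0171), and Rasgrp1, an exchange factor for Ras, at 176 ± 24.5 against 104 ± 12.6 CPM (0.75 ± 0.15, adjusted p = 0.0126). Blk, Dok3 and Pik3cd were the other 3. All 5 calls were lost without B-2 library 1 (Syk, adjusted p = 0.0761) or without B-2 library 2 (0.0643), the count was 3 without B-1a library 2, and with the replicate number as a block it was 8. Rasgrp3, the related exchange factor, was lower at 24.2, 18.1, 14.9 and 8.34 CPM against 129, 125, 123 and 120 CPM (-2.93 ± 0.28, adjusted p = 0.000183). So within this pair of exchange factors the level of one was higher and that of the other lower in every B-1a library. The receptor chains Cd79a (9774 against 8500.3 CPM) and Cd79b, and the kinases Lyn and Btk, did not pass.

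Inhibitory receptors and their adaptors divided as well. Of 21 tested, 7 were higher (Ctla4, Cd300lf, the gate gene Cd5, Fcrl5, Ptpn22, Cd274 and Pirb) and 3 were lower (Fcrl1, Lax1 and Cd72). Ptpn22, a phosphatase that dampens antigen receptor signals, was at 410 against 102 CPM (log2 fold change 2.01), and Cd274, the PD-L1 protein, at 49.2 against 21.6 CPM (1.18). Lax1, an adaptor that restrains lymphocyte signaling, was at 44.7, 47.1, 40.7 and 46.9 CPM against 143, 116, 129 and 138 CPM (-1.55 ± 0.13, adjusted p = 8.52e-05). Fcrl1 was at 97.3 ± 18.3 against 292 ± 16.6 CPM (-1.59 ± 0.16, adjusted p = 0.000282). The classic inhibitory receptors Cd22 (404 against 410 CPM), Fcgr2b (220 against 202 CPM) and Siglecg (1008 against 745 CPM) did not pass the test.

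Receptors for homing signals moved in both directions, with more falls than rises. Of 19 tested, 6 were lower in B-1a cells (Ccr6, Ccr7, Cnr2, P2ry10 and Gpr183 among them) and 3 were higher (Gpr55, S1pr3 and Ccr1). Ccr7, which draws lymphocytes into T cell zones, was at 98.6, 125, 96.9 and 31.6 CPM against 775, 654, 755 and 381 CPM (log2 fold change -2.87 ± 0.40, adjusted p = 0.00170). Gpr55, a receptor of lysophosphatidylinositol, was at 29.2, 30.9, 23.8 and 45.6 CPM against 3.93, 3.48, 3.22 and 2.80 CPM (3.27 ± 0.24, adjusted p = 4.23e-05). The groups were separate for both genes, and library 4 was the lowest of its group for Ccr7. Among 21 integrins and adhesion molecules, Itgb1, the beta 1 chain, was at 682, 597, 555 and 388 CPM against 204, 128, 178 and 75.1 CPM (1.92 ± 0.30, adjusted p = 0.00339), Itgb7 was also higher (0.80 ± 0.18, adjusted p = 0.0244, lost without B-1a library 1 or 3 or without B-2 library 2 or 4), and 0 were lower. With the replicate number as a block, 7 were higher and 2 lower. With the receptor covariate 0 of the 21 passed, so the call of Itgb1 was lost too. The 2 that passed in the main fit can be set against 8.53% of all genes outside the immunoglobulin loci.

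Cytokines and cytokine receptors moved in both directions. Of 30 tested, 9 were higher and 4 lower. Csf2rb, the common beta chain of the receptors for interleukin-3, interleukin-5 and GM-CSF, was at 183, 205, 221 and 239 CPM against 51.7, 55.4, 59.1 and 42.9 CPM (log2 fold change 2.02 ± 0.15, adjusted p = 4.33e-05), and its near-identical neighbor Csf2rb2, between which reads could be split, was higher too. Il2rb was at 12.2 ± 3.13 against 2.39 ± 0.66 CPM (2.35 ± 0.31, adjusted p = 0.00135). Il5ra, Il2ra, Il6ra, Il6st, the TACI receptor Tnfrsf13b (488 against 281 CPM) and the cytokine Il10 (3.14 against 0.687 CPM) were the other rises. Lta, lymphotoxin alpha, was at 7.18 ± 1.90 against 36.3 ± 7.15 CPM (-2.34 ± 0.24, adjusted p = 0.000298), and Il21r at 65.0 ± 10.7 against 159 ± 26.9 CPM (-1.29 ± 0.17, adjusted p = 0.00125). Lymphotoxin serves the organisation of follicles, and interleukin-21 is a signal of follicular helper T cells. The rises numbered 5 without B-1a library 2 and 4 without B-2 library 1 or 2, and the falls 2 without B-1a library 1, 2 or 3 or without B-2 library 1, 2 or 3. With DESeq2 or with at least 10 counts in every library 7 were lower.

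Antigen presentation genes showed no common direction. Of 19 genes of MHC class II and costimulation, 2 were higher and 6 lower. Icosl, the ligand of the T cell costimulator ICOS, was at 9.77, 5.80, 8.66 and 12.6 CPM against 89.8, 72.3, 84.6 and 76.7 CPM (log2 fold change -3.13 ± 0.23, adjusted p = 4.16e-05). H2-Eb2 (7.98 ± 0.79 against 31.5 ± 6.15 CPM, -1.98 ± 0.19, adjusted p = 0.000184), the inhibitors of peptide loading H2-Oa and H2-Ob, Cd40 and Cd1d1 were also lower. Cd80 was at 22.8 ± 3.09 against 7.45 ± 2.33 CPM (1.61 ± 0.24, adjusted p = 0.00249). The main class II genes H2-Aa (8314 against 7961 CPM), H2-Ab1 and Cd74 did not pass. The falls numbered 3 without B-1a library 2 or 3, without B-2 library 2 or 3, or without a filter on low counts. Of 20 Toll-like receptors and partners, Tlr2, Ly96 and Ly86 were higher and Irak3, an inhibitor of their signal, was lower (24.2 ± 4.17 against 57.0 ± 19.4 CPM, -1.24 ± 0.25, adjusted p = 0.0135). The 3 rises were lost without B-1a library 2 or B-2 library 2 (Tlr2, adjusted p = 0.0524 and 0.0831), and 1 was left without B-1a library 3, whereas with the replicate number as a block 5 were higher and 2 lower.

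Genes of the secretory pathway leaned upward. Of 24 plasma cell and secretory genes, 6 were higher in B-1a cells and 0 were lower, with a median of 0.42. Mzb1, a chaperone of IgM assembly, was at 122, 119, 92.5 and 79.0 CPM against 35.7, 38.4, 45.3 and 24.2 CPM (log2 fold change 1.52 ± 0.22, adjusted p = 0.00206). Derl3, Pdia4, Edem1, Prdm1 and Jchain, the joining chain of IgM pentamers (9.94 against 2.19 CPM), were the others. The plasma cell factors Xbp1 (174 against 159 CPM) and Irf4 (54.5 against 55.6 CPM) and the surface marker Sdc1 (2.03 against 5.36 CPM) did not pass, while 22 of the 24 fold changes were positive. The count was 3 without B-1a library 3, 2 without B-2 library 1 and 1 (Mzb1 held) without B-2 library 2.

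Calcium-binding and membrane scaffold genes were mostly higher. Of 17 annexin, S100 and Ahnak genes, 10 were higher and 0 lower, with a median of 0.88. S100a6 was at 2367, 3633, 2462 and 2004 CPM against 685, 594, 971 and 535 CPM (log2 fold change 1.91 ± 0.25, adjusted p = 0.00131), Anxa2 at 555 against 193 CPM (1.52) and Ahnak at 592 against 257 CPM (1.20). Anxa1, also an annexin, was at 76.6 against 151 CPM and did not pass (adjusted p = 0.0767), while 1 of the list was lower with the replicate number as a block. The count was 6 without B-1a library 1 or 2 or without B-2 library 1 or 4 and 5 without B-2 library 2, 3 without B-2 libraries 2 and 4, and 1 with the receptor covariate.

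Among DNA methylation enzymes, Tet3 (27.5 against 25.8 CPM), Dnmt1 (23.5 against 27.2 CPM) and Dnmt3a (31.5 against 21.7 CPM) did not pass the test. Single genes of the cell cycle and early response lists changed. Ccnd2, a cyclin of the entry into the cell cycle, was at 474, 337, 503 and 440 CPM against 183, 105, 194 and 118 CPM (1.55 ± 0.23, adjusted p = 0.00249). Ccne1 and the cell cycle inhibitor Cdkn2c were higher as well, whereas the proliferation genes Mki67 (3.13 against 3.33 CPM) and Top2a (5.94 against 7.03 CPM) were low in both groups, so that 3 of 25 cell cycle genes rose and 0 fell. Over all genes outside the immunoglobulin loci 8.53% differed, and with the receptor covariate 0 of the 25 passed. Atf3 was at 99.1, 73.7, 60.2 and 34.3 CPM against 17.5, 10.9, 13.4 and 6.02 CPM (2.48 ± 0.37, adjusted p = 0.00264). Dusp2, a phosphatase of MAP kinases, was at 11.4, 14.3, 8.40 and 9.39 CPM against 93.1, 71.4, 76.5 and 60.4 CPM (-2.79 ± 0.21, adjusted p = 4.35e-05). Both are early response genes, a list in which 1 of 21 rose and 2 fell, with Cd69 the other fall (82.6 against 387 CPM, adjusted p = 0.0328, lost without B-1a library 2 or 3 or without B-2 library 1, 2 or 3), and Fos (41.7 against 57.7 CPM), Jun and Egr1 did not pass. The block gave 2 of the list as higher and 4 as lower.

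The remaining lists, like those above, can be set against the 8.53% of all genes outside the immunoglobulin loci that differed. BCL2 family and GIMAP genes stood above that share, and lipid, glycolysis and interferon-stimulated genes were nearer to it. So were the integrin, cell cycle and early response genes given above. With the receptor covariate, 0 to 4 members of any list outside the immunoglobulin loci passed in either direction. Genes higher and lower were then 2 and 3 among transcription factors, 0 and 2 in B cell receptor signaling and 2 and 2 among inhibitory receptors. They were 1 and 2 among cytokines and their receptors, 2 and 0 among secretory genes and 0 and 0 among Toll-like receptors. B-2 markers gave 0 and 4, MHC class II and costimulation 0 and 2, early response genes 0 and 1 and homing receptors 1 and 2. Integrin, cell cycle, BCL2 family and GIMAP genes gave 0 and 0. Of 15 BCL2 family genes, Bcl2, Bbc3, Bcl2a1b and Mcl1 were higher by less than 2-fold and Bmf was lower (1.44 ± 0.85 against 7.58 ± 1.56 CPM, log2 fold change -2.38 ± 0.50, adjusted p = 0.0168). The 4 rises were lost without B-1a library 1 or 2, without B-2 library 1, 2 or 4, or with RLE size factors in place of TMM, and only 1 was left with thinned counts, with all TET2-KO libraries in 1 fit or with at least 10 counts in every library. Bmf was lost without B-1a library 2 or B-2 library 2. Of 8 GIMAP GTPases of lymphocytes, Gimap7 (123 ± 22.7 against 266 ± 15.9 CPM, -1.12 ± 0.16, adjusted p = 0.00202), Gimap8 and Gimap6 were lower, and only 1 passed when any 1 library other than B-1a library 4 was left out, without a filter on low counts, or with all TET2-KO libraries in 1 fit. Plin3 and Scd2 were the 2 of 29 lipid genes that rose, and 1 fell with the block. Tpi1 rose and Slc2a3 fell among 18 glycolysis genes, the latter lost without B-1a library 1, 2 or 3 or without B-2 library 2 or 4, and 2 rose with the block. Of 20 interferon-stimulated genes, Ifi27 was higher (202 ± 24.1 against 95.9 ± 7.42 CPM, 1.08 ± 0.14, adjusted p = 0.00113), 0 were lower, and the median was -0.27, and with the replicate number as a block 4 were lower.

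**Figure D3:**
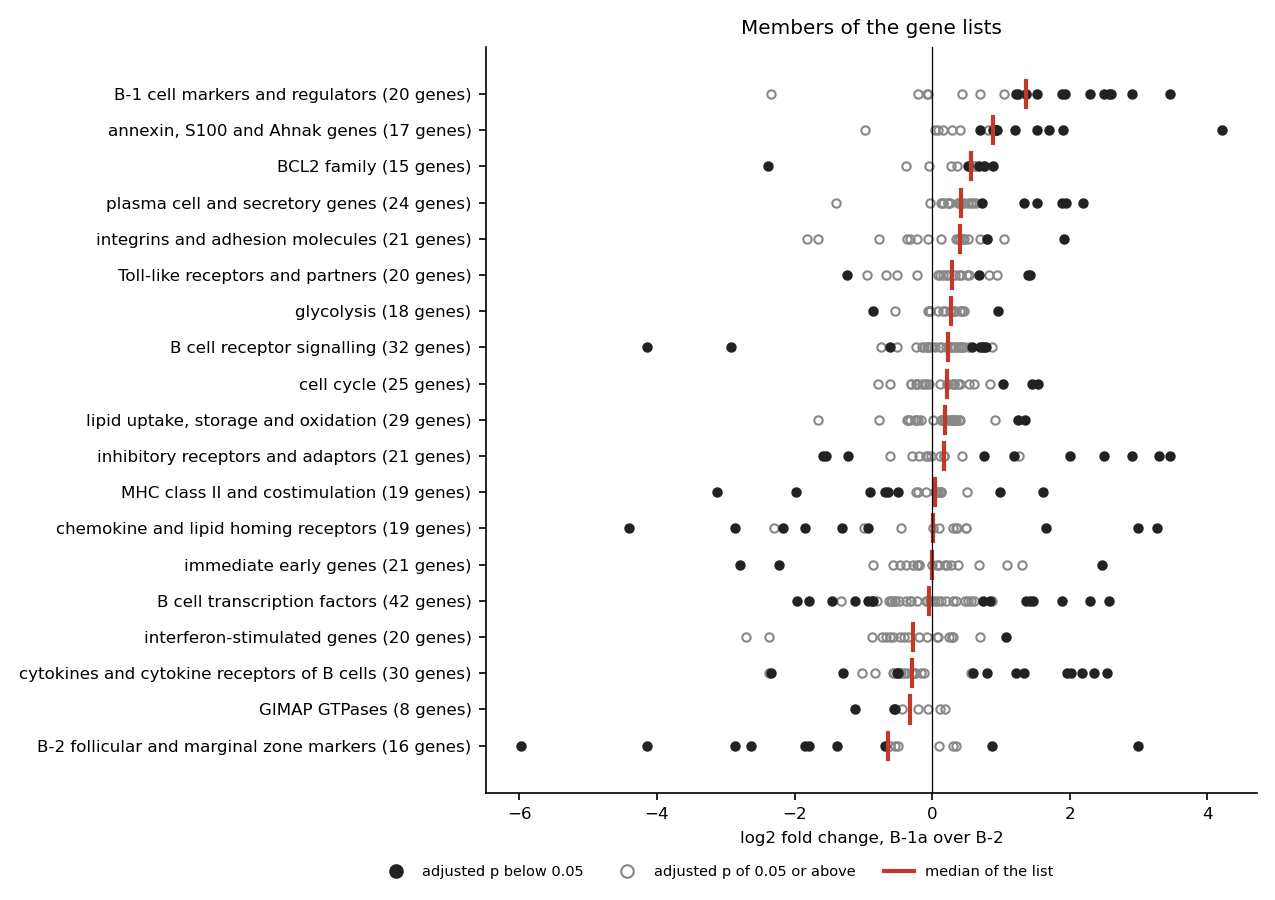
Log2 fold change of B-1a over B-2 cells on the horizontal axis for the tested members of 19 gene lists on the vertical axis. Filled points passed the test, open points did not, and the red bar is the median, which runs from -0.65 for B-2 markers to 1.37 for B-1 markers. Most lists hold points on both sides of 0.

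The immunoglobulin loci differed most broadly. Of 228 immunoglobulin genes that passed the filter, 92 differed (40.4%), with 83 of them at a lower level in B-1a cells (36.4%) and 9 at a higher one (3.95%). Among 95 heavy chain V genes the falls were 31 and the rises 3 (median log2 fold change -1.995), and among 107 kappa chain V genes the falls were 50 and the rises 3 (median -2.19). The heavy chain falls numbered 22 without B-1a library 3 and 19 and 17 without B-2 libraries 1 and 2. With the replicate number as a block 118 immunoglobulin genes passed, without B-2 libraries 2 and 4 47, and with the receptor covariate 24, of which 0 were higher. Fragments that align to several places had been left out of the counts, so that similar V genes could lose reads unevenly.

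The few V genes that were higher in B-1a cells were abundant. Ighv11-2, whose exon is shown above, was at 662, 213, 416 and 422 CPM in B-1a and at 70.04, 14.9, 70.6 and 15.8 CPM in B-2 libraries (log2 fold change 3.32 ± 0.58, adjusted p = 0.00645). Its classic partner Igkv14-126 was at 1982, 633, 1243 and 2270 CPM against 226, 62.9, 240 and 80.9 CPM (3.33 ± 0.53, adjusted p = 0.00394), and in both genes libraries 1 and 3 of B-2 cells stood above 2 and 4. Ighv12-3 was at 68.9, 2123, 144 and 20.9 CPM against 3.40, 27.8, 11.2 and 1.65 CPM (5.74 ± 1.53, adjusted p = 0.0439), and B-1a library 2 alone carried most of it. Its partner Igkv4-91 was at 195, 619, 259 and 366 CPM against 51.6, 63.8, 67.5 and 37.6 CPM (2.71 ± 0.35, adjusted p = 0.00124). The groups did not overlap for Ighv11-2, Igkv14-126 and Igkv4-91, whose calls held when any library was left out, whereas Ighv12-3 overlapped and passed in only 1 of 8 such fits, with a log2 fold change of 2.80 and an adjusted p of 0.109 without B-1a library 2. None of the 4 passed with the receptor covariate (adjusted p from 0.247 to 0.857).

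Further V genes were higher without such a classic role. Igkv12-89 reached 2573 CPM on average against 187 CPM (log2 fold change 3.78 ± 0.79, adjusted p = 0.0160) and Ighv1-55 406 against 56.4 CPM (2.85 ± 0.66, adjusted p = 0.0258); both were named after their values were seen, since a B-1a library overlapped the B-2 range. The call of Ighv1-55 was lost without B-1a library 3 or without B-2 library 1, 2 or 4 (adjusted p from 0.0627 to 0.0963) and that of Igkv12-89 without B-2 library 1 (0.0574). The lambda gene Iglv2 was at 863, 10439, 1265 and 561 CPM against 258, 338, 398 and 160 CPM (3.51 ± 0.89, adjusted p = 0.0362, and 0.0520 to 0.110 when any 1 of the B-2 libraries was left out). Among the falls, Igkv13-85 was at 1.02, 3.27, 1.44 and 0 CPM against 45.6, 46.6, 48.1 and 29.8 CPM (-4.89 ± 0.68, adjusted p = 0.00180). Igkv3-4 was at 5.22 ± 1.97 against 148 ± 28.4 CPM (-4.83 ± 0.30, adjusted p = 2.87e-05), Igkv3-12 at 3.02 ± 1.85 against 63.2 ± 13.1 CPM, Igkv6-17 at 11.7 ± 5.11 against 166 ± 44.3 CPM and Ighv1-50 at 1.73 ± 1.34 against 29.4 ± 7.46 CPM. These 5 genes were each at a small part of their B-2 level in B-1a cells. The leading kappa V gene of B-2 cells, Igkv1-117, named after its values were seen, did not separate the groups. It held 5.01, 7.76, 1.18 and 0.341% of Igkv counts in B-1a and 7.53, 7.89, 7.04 and 7.28% in B-2 libraries (p = 0.114, exact permutation test).

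**Figure D4:**
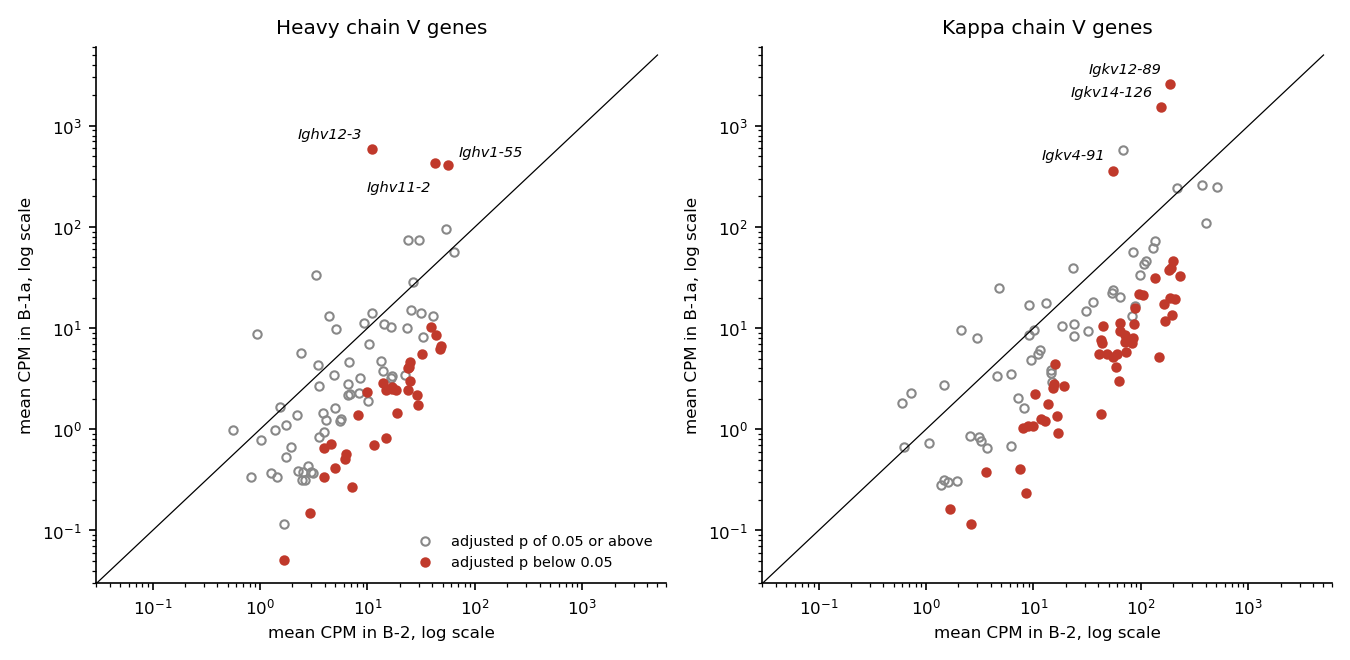
Mean CPM of each tested heavy chain (left) and kappa chain (right) V gene in B-2 cells on the horizontal and in B-1a cells on the vertical axis, both on log scales, with the line of equal levels. Red points passed the test, most of them below the line, and the 6 named genes passed above it.

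As shares of the V counts of a library, these differences made the B-1a repertoire narrow. The largest single heavy chain V gene held 27.4, 69.3, 36.4 and 49.9% of Ighv counts in B-1a libraries and 4.87, 6.75, 5.67 and 5.11% in B-2 libraries. It was Ighv11-2 in B-1a libraries 1 and 4, Ighv12-3 in library 2 and Ighv1-55 in library 3. The effective number of V genes, the inverse of the summed squared shares, was 6.56, 2.04, 4.70 and 2.89 for the heavy chain in B-1a and 46.0, 45.7, 43.5 and 48.1 in B-2 libraries. For the kappa chain it was 4.10 ± 1.36 against 37.5 ± 0.89 (SD, n = 4). All of these separated the groups completely, with p = 0.0286 in a two-sided exact permutation test, the smallest value that 4 against 4 libraries allow. Within same-numbered pairs an exact sign-flip permutation test gave p = 0.125 for each of these shares and numbers, the smallest value that 4 pairs allow, so with the replicate number as a block none of them can pass. The sign-flip test likewise gave no smaller p for the isotype, VH family and lambda comparisons below. Ighv counts per library ranged from 9243 to 45966 and Igkv counts from 57915 to 149061, and 95% Wilson intervals for single libraries cover counting error only.

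The leading kappa gene also differed between B-1a libraries. Igkv12-89 held 37.1, 4.01, 55.7 and 45.5% of Igkv counts in B-1a libraries 1 to 4, while in library 2 Igkv5-48 held 36.9% (95% Wilson interval 36.5 to 37.2%) against 0.0998 to 0.254% in the others. Library 2 was also the one in which Ighv12-3 held 69.3% (68.9 to 69.7%). In B-2 cells the largest kappa gene held 7.44 ± 0.36%.

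By family, 10 of 16 heavy chain V families separated the subsets at the smallest p, 0.0286, which was 0.125 for each of the 10 in the sign-flip test of same-numbered pairs (both exact permutation tests). VH11 held 27.5, 6.95, 20.2 and 49.9% of Ighv counts in B-1a and 4.92, 1.09, 4.04 and 2.13% in B-2 libraries, and VH12 held 2.86, 69.3, 6.98 and 2.47% against 0.255, 1.97, 0.641 and 0.216% (both p = 0.0286, exact permutation test, adjusted p = 0.0457 over 16 families). The VH12 difference of 19.6 percentage points was 3.33 without B-1a library 2, and without any 1 of the B-2 libraries its p was 0.429 to 0.457 and that of VH11 0.0571 (exact permutation tests). The VH11 difference of 23.1 points was 15.2 without B-1a library 4. As single genes, the shares of Ighv11-2 and Ighv12-3 had an adjusted p of 0.0571 over 8 V genes (exact permutation test), above the threshold. VH2, VH3, VH7, VH9, VH10, VH13, VH14 and VH15 were lower in B-1a cells, with the same p. All families are shares of 1 total, so larger VH11 or VH12 shares leave less for the others. VH14, for example, fell from 4.06 ± 0.59% to 0.349 ± 0.071%. VH1, the largest family, was at 36.9 ± 18.8% against 51.6 ± 3.28%, a difference within the spread (p = 0.143, exact permutation test), as was that of VH5 (6.42 ± 8.57 against 10.2 ± 1.36%, p = 0.486, exact permutation test). The VH1 difference of -14.8 percentage points was -6.07 without B-1a library 2, and without B-1a library 1 it was -20.8 with p = 0.0286 (exact permutation test).

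**Figure D5:**
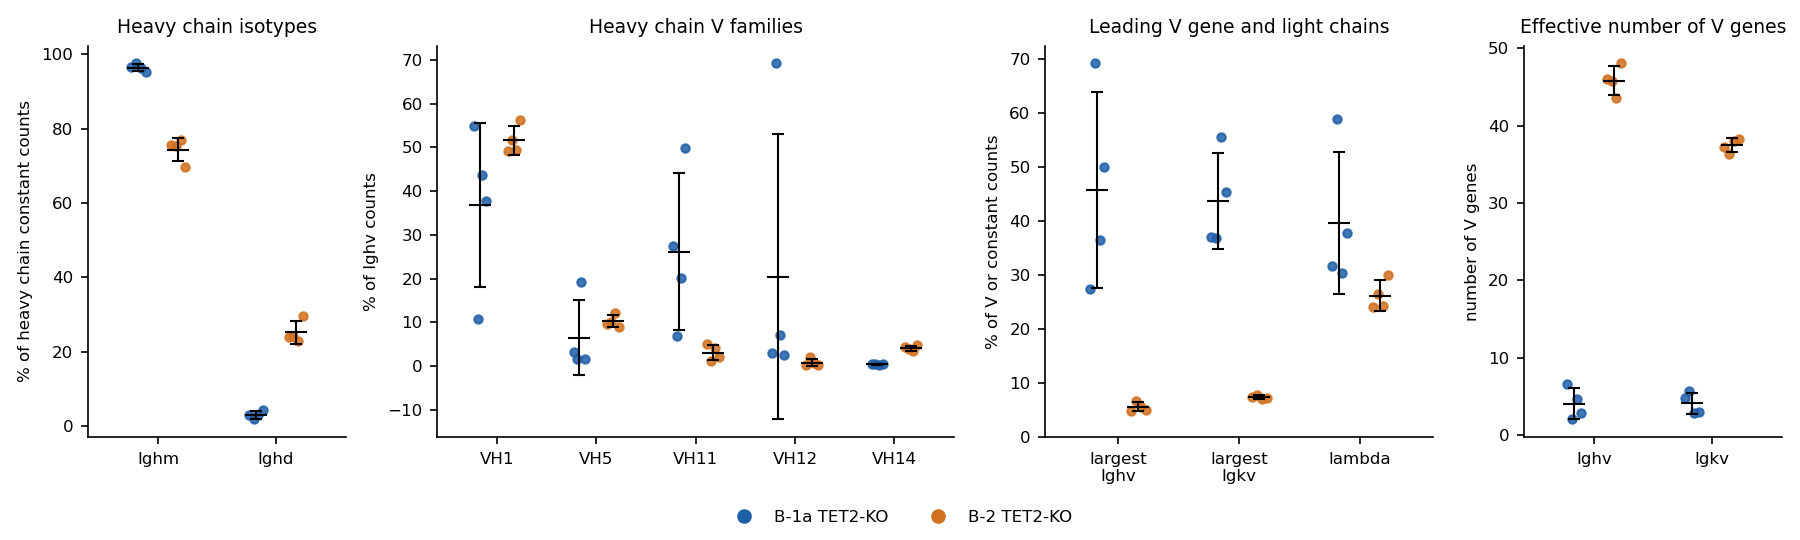
Each point is a library, with the mean and SD of 4 libraries in black. From left to right the panels give isotype shares, shares of 5 heavy chain V families, the share of the largest V gene and of lambda light chains, all in percent of the counts named on the axis, and the effective number of V genes. B-2 libraries cluster tightly, while B-1a libraries spread widely for VH11 and VH12.

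IgM and IgD transcripts divided the subsets. Ighm held 96.6, 97.6, 96.2 and 95.2% of heavy chain constant counts in B-1a and 75.6, 75.3, 76.9 and 69.7% in B-2 libraries, and Ighd 2.99 ± 1.04 against 25.2 ± 3.05% (both p = 0.0286, exact permutation test, adjusted p = 0.0714 over 5 isotypes). IgD was a sort marker, so these shares were partly set by the gate. In CPM, Ighm was at 18531, 21392, 15371 and 9393 against 9262, 8853, 11910 and 5104 and did not pass (log2 fold change 0.88 ± 0.31, adjusted p = 0.103, and 0.0328 with the replicate number as a block). Ighg3, the IgG isotype made by innate-like B cells, was at 66.5 ± 29.9 against 26.8 ± 4.88 CPM (1.31 ± 0.31, adjusted p = 0.0285), a call lost without B-1a library 2 or 3 or without B-2 library 1, 2 or 4 (adjusted p up to 0.0911). Igha was at 24.2 ± 8.20 against 13.6 ± 2.85 CPM (adjusted p = 0.0791, and 0.0333 with the block), and Ighg2b at 14.4 ± 10.1 against 11.2 ± 2.69 CPM (0.698). Ighg1, Ighg2c and Ighe did not pass the filter and stayed below 2 CPM in every library.

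Lambda light chains held a larger share in B-1a cells. Of light chain constant counts, 31.7, 58.9, 30.4 and 37.7% were lambda in B-1a and 24.02, 26.5, 24.3 and 30.1% in B-2 libraries (p = 0.0286, exact permutation test). The lowest B-1a library stood just above the highest B-2 library, and B-1a library 2 stood apart. Without that library the difference was 7.04 percentage points (p = 0.0571, exact permutation test), and without any 1 of the B-2 libraries it was 12.7 to 14.7 points (p from 0.0857 to 0.114, exact permutation tests). With counts divided by gene length the difference was 12.5 percentage points in place of 13.4 and the groups overlapped (p = 0.0571, exact permutation test). Iglc2 was at 18237 CPM in B-1a library 2 and at 3487 to 4566 CPM in the others, against 2191 to 2851 CPM in B-2 libraries (adjusted p = 0.0725), and Igkc was at 14658 ± 2158 against 15044 ± 3100 CPM (adjusted p = 0.933). Iglc1, Iglc3 and Iglc4 did not pass either (adjusted p from 0.176 to 0.415).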

How the data were processed

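RNA of sorted peritoneal B cells had been amplified from ultra-low input and sequenced as paired reads. Per the file headers and the labels, the deposited values are raw counts per gene from featureCounts 1.6.1, made by the authors on GENCODE vM32 and GRCm39 without regard to strand, after fastp trimming and STAR alignment. Multi-mapping fragments and those shared by overlapping genes were not counted. The files held 56953 genes, of which 56310 were given a symbol from GENCODE vM39. Antisense and near-identical genes can share or lose reads.

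Counts of 8 libraries were tested with edgeR 4.0.16 (filterByExpr, TMM, robust quasi-likelihood fit, Benjamini-Hochberg adjustment over all genes tested, threshold 0.05) in R 4.3.3, and the procedure was tested on simulated data. Values after ± are SDs of 4 libraries for levels. For log2 fold changes they are standard errors derived from the fold change and the F statistic of its test. Shares were compared by two-sided exact permutation tests with Python 3.11.15 and scipy 1.17.1. The labels do not say that the 4 libraries of a subset come from separate mice. The paper describes pooling sequences over mice with n = 4 for TET2-KO B-1a cells, and it gives no such number for B-2 cells. The p-values measure the spread between these samples, which may in part be technical.

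Genes were named by rule: the 12 largest changes each way among genes that passed, had a mean of at least 20 CPM in the higher group and did not overlap, at most 5 V genes each way by the same rule, the 4 classic V genes, all constant genes, at most 2 members each way from every list, the sort and subset markers, and Tet2. Other list members were named after their values were seen, and some genes are not reported here. The members and lists were chosen with earlier results of these data known.

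Labels give both subsets replicate numbers 1 to 4 without saying what a number marks. Deviations of same-numbered B-1a and B-2 libraries from their group means correlated at 0.327, 0.087, -0.138 and 0.134 over all genes tested, at 0.743, 0.384, 0.486 and 0.722 over 6506 genes outside the immunoglobulin loci with at least 20 CPM, and at 0.376, 0.485, 0.313 and 0.408 over 228 immunoglobulin genes, for which no other pairing exceeded 0.0229. Pairing by number thus showed in the abundant and immunoglobulin genes but not in all 4 pairs over all genes. The fit without a block was kept, and the blocked value is given beside results whose call it changes or whose count it moves by over 1.5 times. Other alternatives were DESeq2 1.42.0, other size factors and filters, a fold threshold, all TET2-KO libraries in 1 fit, thinning and leaving out each library.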

Additional observations from a re-analysis of the deposited data

Results flagged for a closer look

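Among 210 groups of 4 libraries examined, 12 (5.71%) held a library whose gap to the nearest other library was a larger part of the group's range than Dixon's test allows at its critical value. Chance alone gives about 1 in 20 such groups. B-1a library 2 stood apart from the other B-1a libraries in 6 of the 12. It was the highest for Tcstv2a (134 CPM), Iglv2 (10439 CPM), Iglc2 (18237 CPM), Ighv12-3 (2123 CPM), Bach2 (32.6 CPM) and the VH12 share of Ighv counts (69.3%). Pxdc1 was highest in B-1a library 4 (5.99 CPM) and Il21r in B-1a library 1 (81.0 CPM). Among B-2 libraries, library 4 was the lowest for Igkv13-85 (29.8 CPM), Ly96 (27.2 CPM) and Cd69 (174 CPM), and library 3 for Zeb2 (23.2 CPM).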

How the results depend on the processing

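The number of genes outside the immunoglobulin loci that differed (1322, 736 higher and 586 lower) was most often moved by the filter, by single libraries and by the receptor signal. It was 4555 with DESeq2 (3472 lower) and 2644 without a filter on low counts (1578 lower), both over 43798 genes, and 210 (123 higher, 87 lower) against a fold change of 2. Immunoglobulin genes that differed (92 of 228, 9 higher and 83 lower) were 135 of 349 with DESeq2 (10 higher, 125 lower). Against a fold change of 2 they were 46 (3 higher, 43 lower). When 1 library was left out, the count ran from 556 to 2232 (331 to 973 higher, 225 to 1349 lower) and that of immunoglobulin genes from 64 to 110 (4 to 12 higher, 60 to 100 lower), with the lowest totals without B-2 library 2. Chosen after the data were seen, the receptor covariate gave 102 genes (51 higher, 51 lower) and 24 immunoglobulin genes (0 higher, 24 lower), leaving out B-2 libraries 2 and 4 gave 361 (224, 137) and 47 (3, 44), and a minimum of 20 CPM gave 787 (435, 352) and 56 (8 higher, 48 lower). The causes were not tested. Of the 24 largest changes, 15 passed with the covariate, 23 without B-2 libraries 2 and 4, 20 with at least 10 counts in every library (a filter that removes Krt18, Flt3, Ccr6 and Zfp608), and 24 in every other fit.

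With the replicate number as a block, 1780 genes differed (1147 higher, 633 lower) and 118 immunoglobulin genes. No label says what a number marks, and each library correlated best with its own number over the more abundant and the immunoglobulin genes. Of the named genes, the block added Ighm and Igha to those that passed and removed 0. Between B-1a and B-1b cells, 38 genes and 6 of the 24 became 0 and 0 with the 7 B-1 libraries alone, and 103 and 10 with the block. The lambda share difference was 12.5 points with counts divided by gene length (p = 0.0571, exact permutation test).

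Shares of immunoglobulin counts depended on the pairing and on single libraries. With the replicate number as a block, the differences are by construction those reported, at 23.1 points for VH11, 19.6 for VH12, 13.4 for lambda, 40.2 and 36.3 for the largest heavy and kappa V gene, and -41.8 and -33.4 for the effective numbers of heavy and kappa V genes, but p was 0.125 for each in an exact sign-flip permutation test, which 4 pairs cannot go below. Without B-2 libraries 2 and 4 they were 21.7, 19.95, 15.5, 40.5 and 36.5 points, -40.7 and -33.5, where p cannot go below 0.0667 (exact permutation tests). When 1 library was left out, VH11 was 15.2 to 29.5, VH12 3.33 to 25.6, lambda 7.04 to 16.5, VH1 -20.8 to -6.07, the largest heavy V gene 32.3 to 46.3, Ighm 20.5 to 22.9 and Ighd -23.0 to -20.7 points. Calls over each family of shares were lost without any 1 of the B-2 libraries for VH11, VH12, lambda and the largest heavy V gene, and without B-1a library 2 for VH11, VH12 and lambda, whereas VH1 passed without B-1a library 1 and Ighm and Ighd without B-1a library 3.

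Changes of sign were limited to genes that did not pass. On the log2 scale, Igkc (-0.04) was 0.069 without a filter and -0.17 to 0.11 when a library was left out, and Ighg2b was -0.089 to 0.735 and Tet2 -0.093 to 0.432 when a library was left out. With the covariate Iglc1 was -0.020, with a minimum of 20 CPM Tet2 was -0.076, and with at least 10 counts Tet2 was -0.014.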
